A study of Mus musculus with 10 samples.

Results

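CD8+ T cells from the spleens of Dusp2 conditional knockout (cKO) mice were compared with those of floxed control mice after 24 h of activation. The libraries were chosen by genotype label, treatment label and library name: 3 cKO and 2 control activated libraries, each from its own mouse, out of 10 libraries in the series. All genes were compared, and 18966 of the 57010 genes in the table had enough counts to be tested. The cKO mice were Dusp2fl/fl-E8I-cre+/- and the controls Dusp2fl/fl-E8I-cre-/-, so every mouse carried floxed Dusp2 and only the cKO mice carried cre. E8I-cre is active in CD8 T cells, so that the cKO removes floxed Dusp2 in these cells and not in the whole animal. The loss of Dusp2 and the presence of cre cannot be told apart here, and the age of the mice is not given in the sources used here. Cells were activated in culture with beads carrying anti-CD3 and anti-CD28, which engage the T cell receptor and a co-stimulatory receptor. The other 5 libraries came from cells of the same mice kept without beads.

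DUSP2 (also called PAC1) is a nuclear phosphatase of the dual-specificity family. It removes activating phosphates from MAP kinases, the kinases that carry the T cell receptor signal through RAS and RAF to transcription factors in the nucleus. Dusp2 is itself an immediate-early gene that T cells switch on when the receptor is engaged. The study's title links DUSP2 to the BAF complex, an ATP-driven chromatin remodeller, and to the effector programme of CD8 T cells, by which these cells make cytokines, chemokines and cytotoxic granules.

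The 5 activated libraries held 56491593 to 65135435 counts, so that 3 counts, used here as the floor for a gene at 0, stood for 0.0453 to 0.0517 CPM (counts scaled to library size). The title of the activated library of cKO mouse 3 calls it rested, against its treatment label and library name, and the title of the rested library of that mouse names an activated control. The library labelled cKO mouse 3, activated, had the activation genes Il2ra (464 CPM) and Irf4 (1165 CPM) at the level of the other activated libraries and Dusp2 at the level of the other cKO libraries. The CD8 T cell markers Cd3e, Cd8a, Cd8b1 and Trac were high in all 5 libraries, and their list of 12 summed to between 4542 and 4943 CPM. Of the markers of other cells, Cd4 stood at 0.776 CPM or less, Ms4a1 at 0.0167 CPM or less, Ncr1 at 0.069 CPM or less, and Siglech, Hba-a1 and Pf4 at 0 in all 5. Other such markers were higher: Zbtb7b stood at 11.8 to 31.9 CPM, Trdc at 5.03 to 5.54 CPM and Itgax at 0.836 to 2.47 CPM. Lyz2 reached 0.949 CPM in cKO mouse 2 and stood at 0.0673 CPM or less elsewhere. Whole lists were not at 0: the CD4 and regulatory T cell list, which holds the activation gene Il2ra, summed to between 496 and 600 CPM, the B cell list to between 230 and 287 CPM, largely from Ighm, and MHC class II to between 57.1 and 77 CPM, with overlap between the genotypes in each. In such bulk RNA, fewer cells of a type and less RNA per cell cannot be told apart. Control mouse 1 and cKO mice 1 and 2 were male, control mouse 2 and cKO mouse 3 female, so the fit carried a term for sex, and values below are given for each mouse in the order control 1 and 2, then cKO 1, 2 and 3.

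The deposited counts give no sequence, so the DNA just before Dusp2 and before Astl, the gene that follows it on the same strand, is shown because the largest changes of this comparison lie there. The windows are the 250 bases before each start site in RefSeq, read on the plus strand of build GRCm38.p6, at chr2:127335909-127336158 for Dusp2 and chr2:127338389-127338638 for Astl. RefSeq has a further start site for Astl, whose window (chr2:127341386-127341635, 54.8% G and C, 1 CpG pair) holds neither of the sequences marked here and is not printed. Capitals mark the E-box CACGTG in the window of Dusp2 and the repeated unit TGGCCTGGGC in the printed window of Astl, the unit of 10 bases that recurred most often there.
Dusp2: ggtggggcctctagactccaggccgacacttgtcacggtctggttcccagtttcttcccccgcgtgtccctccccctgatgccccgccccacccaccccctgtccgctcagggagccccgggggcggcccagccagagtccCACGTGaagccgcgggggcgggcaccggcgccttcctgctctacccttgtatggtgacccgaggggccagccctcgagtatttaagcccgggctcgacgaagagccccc
Astl: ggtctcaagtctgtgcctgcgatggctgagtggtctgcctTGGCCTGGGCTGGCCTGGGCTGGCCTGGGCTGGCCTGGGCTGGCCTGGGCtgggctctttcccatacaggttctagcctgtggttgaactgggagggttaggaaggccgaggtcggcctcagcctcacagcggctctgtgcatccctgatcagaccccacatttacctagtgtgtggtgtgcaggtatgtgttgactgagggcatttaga
Dusp2 ended 261 bases before the start of Astl in that build, so the printed window of Astl lies wholly between these genes. The window of Dusp2 was 70.4% G and C with 19 CpG pairs, and that of Astl 60.8% with 4. Searched on both strands, CACGTG matched the window of Dusp2 1 time, 109 bases before the start, and did not match that of Astl. It occurred in 6.02% of 32851 windows of this length. The unit TGGCCTGGGC occurred 5 times in a row in the window of Astl and in 0.237% of all windows. TATAAA matched neither window and 12.4% of all windows, and the AP-1 motif TGACTCA matched neither and 4.46% of all windows. These matches describe letters only, and the start sites used in these cells were not measured.

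Dusp2 fell and the 3 genes after it on its strand rose in activated cKO cells. In all, 8 of 18966 genes (0.0422%) had an adjusted p below 0.05 (edgeR, quasi-likelihood test, Benjamini-Hochberg adjustment), 5 of them higher and 3 lower in cKO. Of the 8 genes, 5 lie on chromosome 2. Groups without overlap were frequent among all 18966 genes tested. Every cKO library lay above both controls for 1460 genes and below both for 1775. The plot of all genes tested shows how far these 8 stand from the rest.

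**Figure D1:**
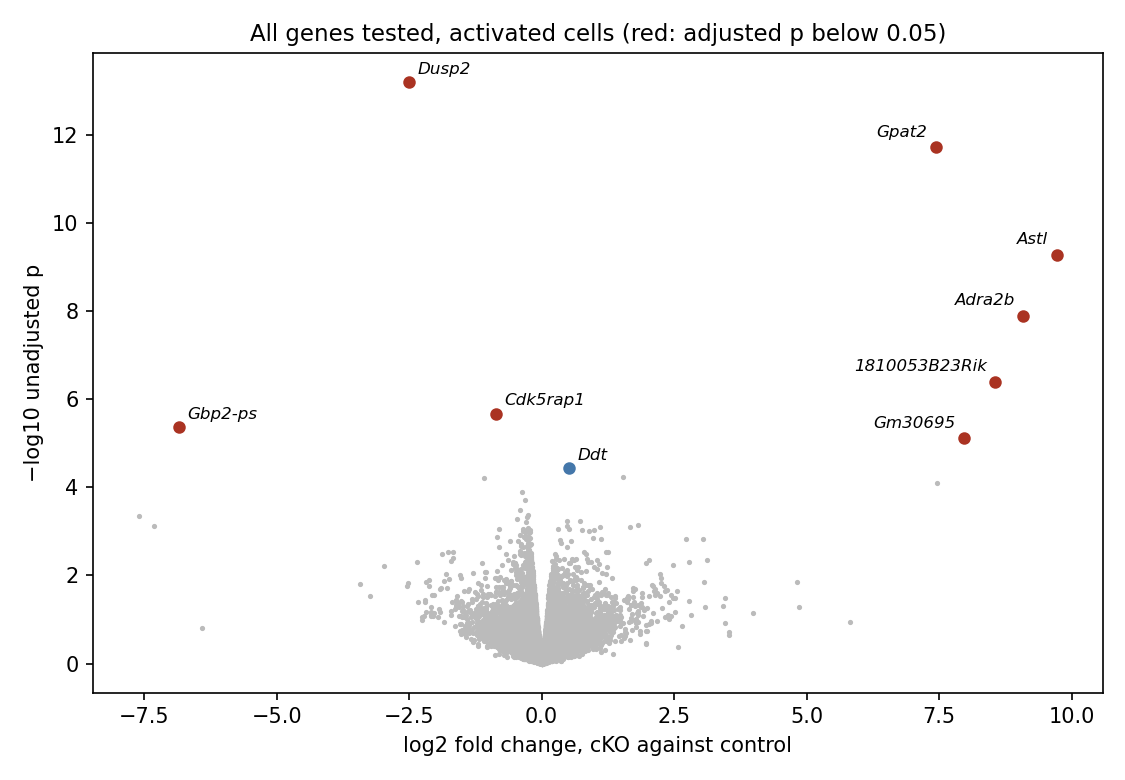
Each point is 1 of 18966 genes tested in activated cells, with its log2 fold change (cKO against control, x axis) against the −log10 of its unadjusted p (y axis). The 8 genes with an adjusted p below 0.05 are red and named, and Ddt, the next gene by p, is blue.

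Dusp2 (ENSMUSG00000027368, chromosome 2, positions 127178079 to 127180296 in mm39) stood at 292 and 299 CPM in the control mice and at 56.3, 46.4 and 52.6 CPM in the cKO mice. The groups were far apart, with the cKO level at 17.5% of the control level. The log2 fold change was -2.49 (SE 0.07; edgeR's quasi-likelihood test, adjusted p = 1.18e-09). Per gene length, Dusp2 stood at 151 ± 1.4 FPKM (SD, n = 2) in control cells and 26.4 ± 2.5 FPKM (SD, n = 3) in cKO cells. Which part of the gene is floxed is not given in the labels, so the remaining counts may include transcript without it.

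Astl encodes ovastacin, a metalloendopeptidase of the oocyte. It stood at 1.12 and 0.392 CPM in the control mice and at 595, 571 and 691 CPM in the cKO mice. The log2 fold change was 9.72 (SE 0.28; adjusted p = 3.32e-06 in edgeR's quasi-likelihood test). No control library came near any cKO library. Per gene length, Astl in cKO cells (247 ± 24.6 FPKM, SD, n = 3) was above Dusp2 in control cells (151 ± 1.4 FPKM, SD, n = 2). Astl begins 263 bp past the end of Dusp2 in mm39.

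Adra2b encodes an alpha-2 adrenergic receptor and begins 24.8 kb past Dusp2. Its libraries held 31 and 6 counts in the control mice and 8832, 8684 and 10482 counts in the cKO mice. In CPM this was 0.518 and 0.0906 against 144, 150 and 176, and the log2 fold change was 9.09 (SE 0.34; edgeR's quasi-likelihood test, adjusted p = 6.03e-05). Gpat2, an acyltransferase gene of the germ line, begins 86.8 kb past Dusp2 and stood at 0.151 and 0.166 CPM in control against 20.6, 26.8 and 30.3 CPM in cKO mice. Its log2 fold change was 7.44 (SE 0.27; adjusted p = 1.79e-08 in edgeR's quasi-likelihood test). The level per gene length stepped down with distance from Dusp2 in cKO cells, from 247 ± 24.6 FPKM for Astl to 40 ± 4.2 FPKM for Adra2b and 10.1 ± 1.9 FPKM for Gpat2 (SD, n = 3). A table of counts per gene does not show where these transcripts start. In a fit of the 5 activated libraries alone, the adjusted p of Astl was 0.101 and that of Adra2b 0.165, with log2 fold changes of 9.72 and 9.08, while Dusp2 and Gpat2 still passed.

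The run of raised genes ended at Gpat2. Fahd2a, on the opposite strand 0.123 kb beyond it, stood at 4.13 and 3.86 CPM in control and 3.93, 3.54 and 3.15 CPM in cKO mice (log2 fold change -0.21, SE 0.14, adjusted p = 0.849 in edgeR's quasi-likelihood test). On the other side of Dusp2, Stard7, which encodes a lipid transfer protein of mitochondria, ends 37.2 kb before it. Stard7 stood at 82.5 and 97.1 CPM in control mice and at 68.5, 68.3 and 77.5 CPM in cKO mice, with every cKO library under every control library. Its log2 fold change of -0.31 (SE 0.06) did not pass in edgeR (adjusted p = 0.26) but did by DESeq2's Wald test (adjusted p = 0.0166). Tmem127, 75.1 kb before Dusp2, stood at 161 and 151 CPM against 128, 140 and 127 CPM (log2 fold change -0.25, SE 0.06, adjusted p = 0.481 in edgeR's quasi-likelihood test). The neighbours Stard7 and Tmem127 thus lay below control in all 3 cKO mice, though neither was called.

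**Figure D2:**
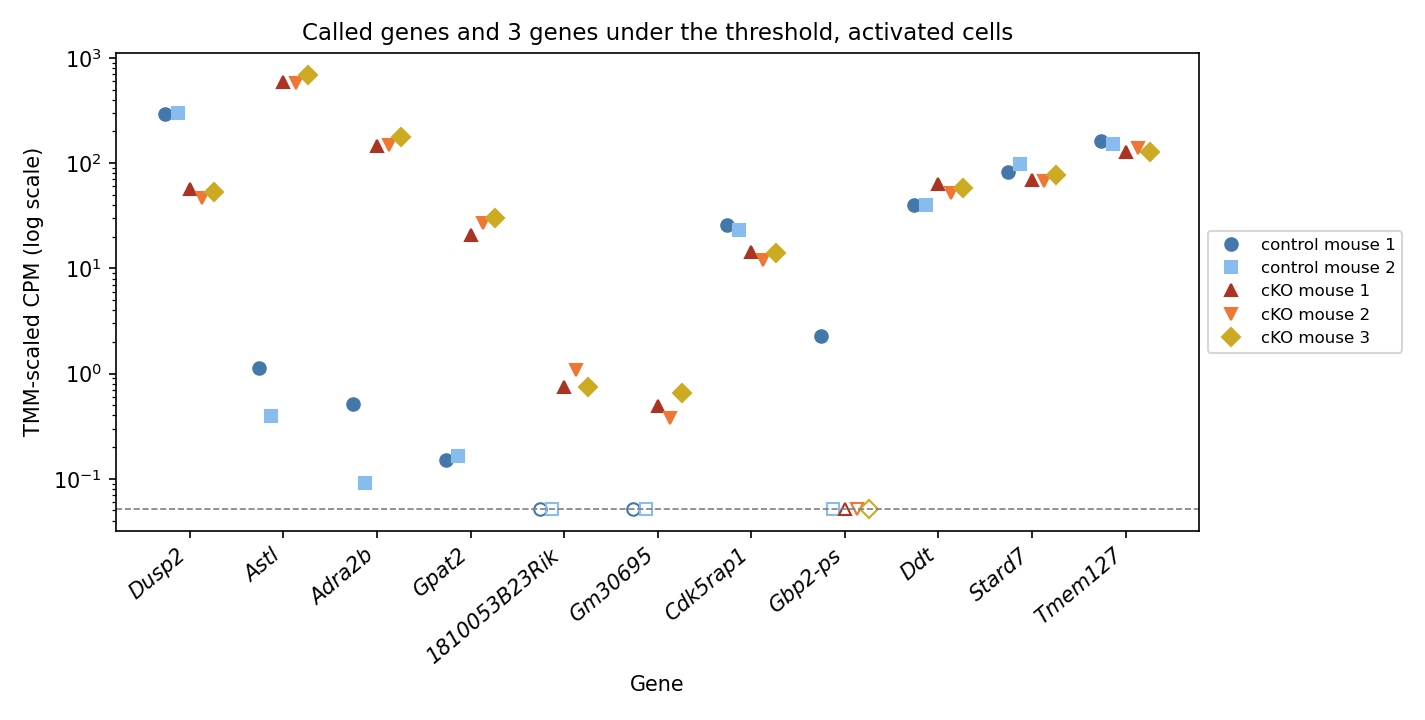
Each symbol is 1 activated library (2 control mice in blue, 3 cKO mice in red, orange and yellow), with its TMM-scaled CPM on a log axis for the 8 called genes and for Ddt, Stard7 and Tmem127. The dashed line is the highest 3-count floor of the 5 libraries (0.0517 CPM), and open symbols on it are libraries under that line, among them all cKO libraries of Gbp2-ps and all control libraries of 1810053B23Rik and Gm30695.

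Away from Dusp2, Cdk5rap1 fell. It encodes an enzyme that modifies mitochondrial tRNAs and lies 27 Mb further along chromosome 2. Its libraries stood at 26 and 22.9 CPM in control mice and at 14.3, 11.9 and 14.1 CPM in cKO mice, without overlap (log2 fold change -0.86, SE 0.11, adjusted p = 0.00673 in edgeR's quasi-likelihood test). Of the tested genes around it, Mapre1, Cbfa2t2 and Dnmt3b had log2 fold changes of -0.03, -0.08 and -0.08. Without control mouse 1 its adjusted p was 0.464 by the same test, and without cKO mouse 1 it was 0.0765.

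The other called genes had few counts. 1810053B23Rik, a non-coding RNA gene on chromosome 16, had 0 counts in both control libraries and 46, 62 and 44 counts in the cKO libraries. Against a floor of 3 counts in the 2 control libraries together it was 35.8-fold higher in cKO (95% counting interval from 28.75-fold upward). Its adjusted p was 0.0015 in edgeR's quasi-likelihood test. Gm30695, which lies 105 kb beyond it on the same strand, had 0 and 0 counts against 30, 22 and 39 counts. Against that floor it was 21.4-fold higher (interval from 17.07-fold upward, adjusted p = 0.0183 by the same edgeR test). Between them 1700029J03Rik, looked up because of its position, had 0 and 0 counts against 25, 33 and 14 counts (adjusted p = 0.127). These 3 adjacent genes were thus read in every activated cKO library and in neither activated control library, at 1.07 CPM or less. In the rested control libraries 1810053B23Rik had a mean of 0.00857 CPM and 1700029J03Rik of 0.0266 CPM. The next gene beyond at a higher level, Setd4, stood at 17.5 and 18.7 CPM against 22.8, 20 and 19.3 CPM (log2 fold change 0.17, SE 0.10), and Cbr1 after it at 12 and 11.7 CPM against 12.8, 15 and 13.3 CPM (0.19, SE 0.09, unadjusted p = 0.0466 in edgeR's quasi-likelihood test). Both were above the controls in all 3 cKO mice without being called, whereas Runx1, on the near side, overlapped (-0.05). Without cKO mouse 3 the adjusted p of 1810053B23Rik was 0.0889 and that of Gm30695 0.703.

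The third gene that fell, the pseudogene Gbp2-ps on chromosome 3, held 137 and 3 counts in control mice and 0, 2 and 0 counts in cKO mice (adjusted p = 0.0117 in edgeR's quasi-likelihood test). Only control mouse 1 stood above the floor, so the call rests on 1 library, and in the fit without a sex term its adjusted p was 1. The parent gene Gbp2, an interferon-induced GTPase, had a log2 fold change of 0.11, and its neighbours Gbp3 and Gbp7 had 0.05 and -0.06. Reads of such near-identical copies can be assigned to either gene, and this was not tested.

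The gene closest to the threshold was Ddt, which encodes D-dopachrome tautomerase, a relative of the cytokine MIF. It stood at 40.3 and 40 CPM in control mice and at 62.7, 52.1 and 58.4 CPM in cKO mice, with no overlap. The log2 fold change was 0.51 (SE 0.08), with an adjusted p of 0.0761 in edgeR's quasi-likelihood test and 0.000317 by DESeq2's Wald test. Ddt lies in a cluster of detoxifying glutathione transferases and Mif on chromosome 10, whose members were looked up after Ddt was seen. Gstt3, which starts 2.89 kb from it, stood at 1.31 and 1.78 CPM against 2.76, 2.31 and 2.86 CPM (log2 fold change 0.76, SE 0.33, unadjusted p = 0.0397 in edgeR's quasi-likelihood test). Gstt1, 12.6 kb away, stood at 0.351 and 0.302 CPM against 0.998, 0.793 and 1.29 CPM (log2 fold change 1.67, SE 0.38, unadjusted p = 0.000773 by the same edgeR test). Gstt4, 43.7 kb away, stood at 0.368 and 0.272 CPM against 0.442, 0.448 and 0.454 CPM. Its log2 fold change was 0.49 (SE 0.50, unadjusted p = 0.347 by the same edgeR test). Gstt2 at 59.9 kb and Mif at 88.1 kb had 0.29 (SE 0.09) and 0.22 (SE 0.09), and for both the groups overlapped. Derl3 and Smarcb1, a BAF subunit, follow at 122 and 125 kb. The log2 fold change of Derl3 was 0.53 (SE 0.40), with overlap, and that of Smarcb1 was 0.04 (SE 0.06).

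The genes named from here on are described and not called unless stated. At an unadjusted p below 0.05, 478 genes (2.52%) were higher and 664 (3.5%) lower in cKO, the called genes included. Ranked by log2 fold change among those whose libraries did not overlap and that reached 5 CPM, the 12 highest were Astl, Adra2b and Gpat2, then Ccl9, Xcl1, Ccl3, Tmem254a, Srgap3, Eomes, Zeb2, Srxn1 and Serpinb9. The 12 lowest were Dusp2 and Cdk5rap1, then Ccr4, Xkrx, Ksr2, Tbc1d30, Syde1, Kcna2, Xdh, Plaur, Dnah17 and Sgms1. The higher side thus held 3 chemokines, Eomes, Zeb2 and Serpinb9 of the effector lists. The lower side held a chemokine receptor (Ccr4), a scaffold of the RAF to ERK cascade (Ksr2), a potassium channel (Kcna2) and enzymes of purine (Xdh) and sphingomyelin (Sgms1) metabolism. Ksr2, Kcna2, Xdh, Dnah17 and Sgms1 are long genes, of 9175 to 16126 bases. In the longest of the length bins described below, 296 genes were lower and 19 higher at an unadjusted p below 0.05. The rest of the 12 lowest are 2003 to 6733 bases long. Among those of the 12 lowest that were not called, Sgms1 had the smallest p: 26.2 and 23.3 CPM in control against 20.3, 20.8 and 17 CPM in cKO mice, with a log2 fold change at -0.38 (SE 0.07, adjusted p = 0.19 in edgeR's quasi-likelihood test). Tbc1d30, which encodes a RAB GTPase activator, stood at 110 and 116 CPM against 85.1, 94.8 and 73.1 CPM (log2 fold change -0.47, SE 0.10, adjusted p = 0.481 by the same edgeR test). Sgms1 and Tbc1d30 passed by DESeq2's Wald test (adjusted p = 0.0166 and 0.0132).

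Gene groups were next described by role, with lists that were drawn up with earlier results of these data known. By edgeR no member of any list outside the genes around Dusp2 passed the adjusted threshold. Each list is thus given by its median log2 fold change and its count of positive values. Over all genes tested the median was 0.00, with 50.7% positive values. At an unadjusted p below 0.05, 2.52% of all genes tested were higher and 3.5% lower, against which such counts in a list are to be read.

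The MAP kinase pathway, on which DUSP2 acts, had a median of -0.03 over 29 tested members, 13 of them positive. At an unadjusted p below 0.05, 1 member was higher and 5 were lower, against 2.52% higher and 3.5% lower over all genes tested. Rasgrp1, which loads RAS after receptor engagement, stood at 286 and 287 CPM in control against 230, 264 and 249 CPM in cKO mice (log2 fold change -0.19, SE 0.08). Braf and Sos1, also of RAS signalling, had -0.20 (SE 0.07) and -0.19 (SE 0.06) with no overlap between the groups. Both are long (13862 and 10594 bases) and fall in the longest length bin described below, where 296 genes were lower and 19 higher at that threshold. The kinase Map3k8, which feeds into the same cascade, had 0.26 (SE 0.10), and its groups overlapped. Of the 18 other Dusp genes tested, none passed an unadjusted p of 0.05: Dusp4 had 0.45 (SE 0.23), with 18.1, 14.2 and 27 CPM in cKO against 14.4 and 14.8 CPM in control, Dusp10 had -0.14 (SE 0.08) and Dusp11 -0.12 (SE 0.06). Per gene length Dusp5 was the next Dusp gene after Dusp2 in control cells, at 105 ± 19.2 FPKM (SD, n = 2), and it stood at 120 ± 25.5 FPKM (SD, n = 3) in cKO cells.

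The 29 genes that answer or restrain ERK had a median of 0.04, with 17 positive. Spry4, a feedback inhibitor of the pathway, stood at 1.62 and 2.02 CPM in control and 2.67, 3.04 and 2.34 CPM in cKO mice (log2 fold change 0.54, SE 0.23). Ier3, an early response gene, had 0.37 (SE 0.15), while Elk4, a nuclear target of ERK, stood at 385 and 356 CPM against 344, 339 and 296 CPM (-0.20, SE 0.06). The direction of this list was not stable: without cKO mouse 3 its median was -0.05 and without cKO mouse 2 -0.03. Among cytokine signalling genes, Stat5a stood at 148 and 154 CPM against 174, 154 and 184 CPM (0.18, SE 0.07) and Cish, a STAT5 target, had 0.32 (SE 0.11), with a median of 0.00 over the 24 STAT and SOCS genes. The AP-1 genes Jund and Atf4 had 0.18 (SE 0.08) and 0.12 (SE 0.05), and their list of 16 a median of 0.06, which was 0.03 without control mouse 2 and 0.18 without control mouse 1.

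Transcripts of the BAF complex, named in the study's title, had a median log2 fold change of -0.0031 over 27 tested subunits, 13 positive and 14 negative. Of the 27, 2 were lower and 0 higher at an unadjusted p below 0.05, against 3.5% lower and 2.52% higher over all genes tested. Both, Arid1a and Pbrm1, are long (11476 and 8846 bases). The median length of the list was 6650 bases, against 3099.5 bases over all genes tested. In the longest of the length bins (7767 bases and more), 296 genes were lower and 19 higher at that threshold. Arid1a, a large DNA-binding subunit, stood at 529 and 528 CPM in control and at 478, 493 and 463 CPM in cKO mice (log2 fold change -0.14, SE 0.06, unadjusted p = 0.0237 in edgeR's quasi-likelihood test). Pbrm1, which marks the related PBAF complex, stood at 136 and 143 CPM against 133, 121 and 124 CPM (-0.15, SE 0.06, unadjusted p = 0.0259 by the same edgeR test). The groups did not overlap for either gene, and neither passed after adjustment or under any of 17 alternative analyses. Smarca4, the ATPase of the complex, stood at 50.7 ± 3.0 FPKM (SD, n = 2) in control and 51.3 ± 3.0 FPKM (SD, n = 3) in cKO cells. Of 34 NuRD and Polycomb genes, Jarid2, a PRC2 cofactor, had the smallest p, with 92.4 and 101 CPM against 81.2, 80 and 80.1 CPM (-0.26, SE 0.06, adjusted p = 0.481 in edgeR's quasi-likelihood test).

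The chemokine genes showed the largest list median, 0.72 over 11 tested members, of which 8 were positive. These are small secreted proteins by which activated CD8 T cells draw in other immune cells. Ccl9 stood at 2.66 and 2.88 CPM in control and at 9.18, 6.38 and 13.1 CPM in cKO mice (log2 fold change 1.82, SE 0.37, adjusted p = 0.481 in edgeR's quasi-likelihood test). Xcl1, whose product attracts cross-presenting dendritic cells, stood at 32 and 32.6 CPM against 58.4, 48.8 and 96.7 CPM (1.09, SE 0.27). Ccl3 stood at 57 and 51.1 CPM against 134, 95 and 87.9 CPM (0.88, SE 0.22), and Ccl4, a closely related chemokine, at 88.5 and 92.2 CPM against 182, 120 and 155 CPM (0.72, SE 0.30). For these 4 genes every cKO library lay above every control library, as was so for 1460 of all 18966 genes tested. Ccl5 overlapped between the genotypes, and the female mouse of each genotype was low. It stood at 71.2 CPM in the male control against 101 and 90.9 CPM in the male cKO mice. The female control held 16.8 CPM and the female cKO mouse 32.6 CPM (0.65, SE 0.16). Within each sex its cKO libraries were above the control library. Sex cannot be told apart here from the library name prefix, which the mice of a sex share. Ccl1 had the highest fitted value, 2.72 (SE 0.54), but it rested on cKO mouse 3, which held 6.98 CPM against 0.507 and 1.17 CPM in the other cKO mice. Relative to the mean of the controls, the list median was 0.86, 0.60 and 0.54 in cKO mice 1, 2 and 3, and it lay between 0.63 and 0.89 under the 17 alternatives. None of these genes passed the adjusted threshold by edgeR, and of those named only Ccl5 passed by DESeq2's Wald test (adjusted p = 0.00216), which gave no adjusted p for Ccl1.

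**Figure D3:**
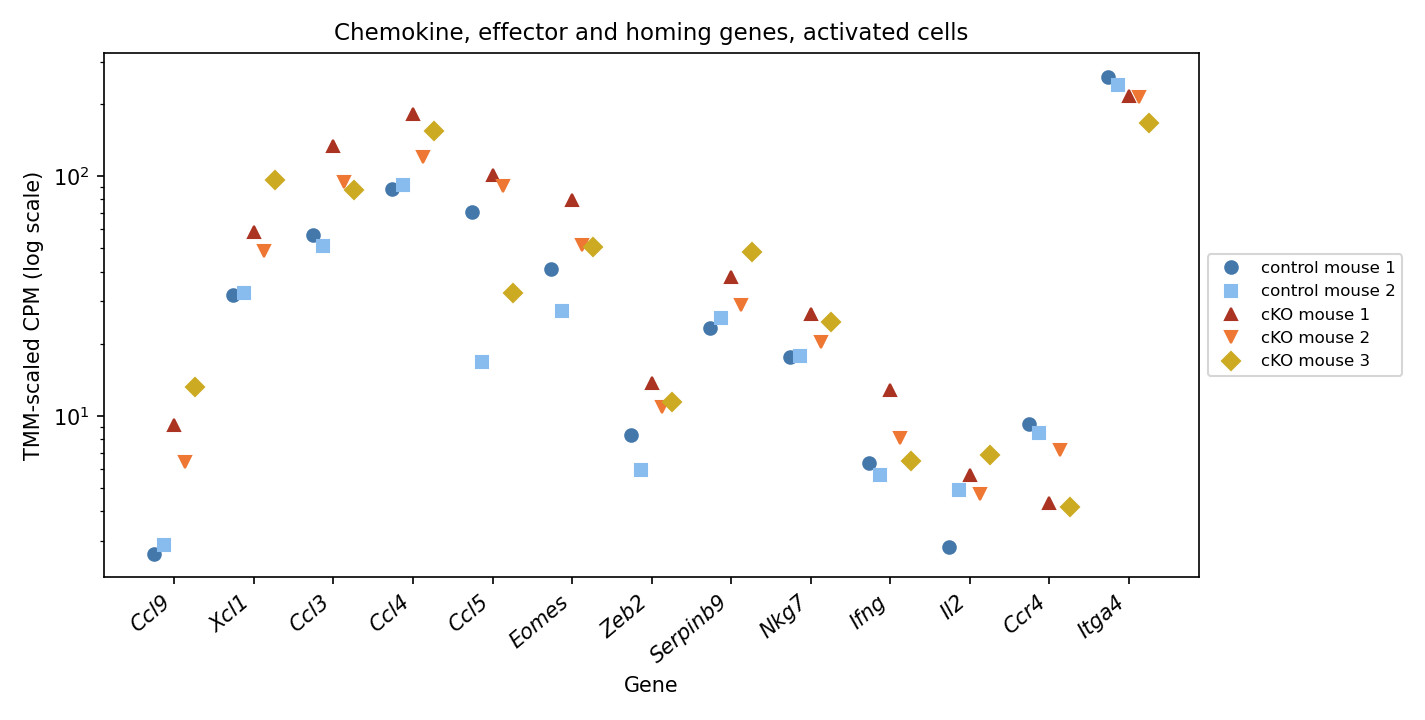
Each symbol is 1 activated library, with its TMM-scaled CPM on a log axis, for 5 chemokine genes (Ccl9 to Ccl5), 6 effector or cytokine genes (Eomes to Il2) and the homing receptors Ccr4 and Itga4. For Ccl9, Xcl1, Ccl3, Ccl4, Eomes, Zeb2, Serpinb9, Nkg7 and Ifng the 3 cKO libraries lie above both control libraries, for Ccr4 and Itga4 below, and for Ccl5 and Il2 the groups overlap.

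Cytokine genes had a median of 0.21, with 15 of 20 tested members positive and 6 higher at an unadjusted p below 0.05. The median was 0.12 without cKO mouse 1 and 0.07 with mouse number in place of sex. In the latter fit the term for number 3 stands for cKO mouse 3 alone, and sex is not modelled. Il2, the T cell growth factor, stood at 2.84 and 4.92 CPM in control and 5.68, 4.71 and 6.88 CPM in cKO mice, with overlap (log2 fold change 0.74, SE 0.24). Ifng stood at 6.36 and 5.64 CPM against 12.8, 8.05 and 6.47 CPM (0.51, SE 0.21), and Tnf at 63.5 and 70.2 CPM against 71.2, 71.9 and 90.3 CPM (0.27, SE 0.11). For Ifng and Tnf the groups were adjacent without overlap, and the spread within the cKO mice was wider than the gap to the controls.

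Cytotoxic granule genes had a median of 0.10 (0.07 without cKO mouse 3 and 0.20 with mouse number in place of sex), with 18 of 22 positive. Nkg7, a granule membrane protein needed for degranulation, stood at 17.6 and 17.8 CPM in control against 26.7, 20.3 and 24.6 CPM in cKO mice (log2 fold change 0.42, SE 0.12). Serpinb9, which shields the killer cell from its own granzyme B, stood at 23.3 and 25.6 CPM against 38, 29 and 48.5 CPM (0.67, SE 0.19). Its adjusted p was 0.694 in edgeR's quasi-likelihood test and 0.0358 by DESeq2's Wald test. Gzmb itself was low at this time, with 1.69 and 4.11 CPM against 5.14, 3.16 and 5.55 CPM (1.00, SE 0.39), and its groups overlapped, as did those of Gzma, which stayed under 1 CPM in all 5 libraries. Prf1, which encodes the pore-forming perforin, stood at 14.1 ± 0.37 FPKM (SD, n = 2) in control and 14.7 ± 0.66 FPKM (SD, n = 3) in cKO cells.

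Killer lectin-like receptors, surface receptors of natural killer cells and memory-phenotype CD8 T cells, had a median of 0.67, with 18 of 22 positive. Relative to the mean of the controls the list median was 0.36 and -0.36 in the control mice and 1.08, 0.63 and 0.14 in the cKO mice, so cKO mouse 3 lay below control mouse 1. By limma-trend on log2(FPKM + 0.5) the list median was 0.26. The members described were at a low level: Klra3 stood at 1.34 and 0.543 CPM in control against 2.65, 2.09 and 1.28 CPM in cKO mice (log2 fold change 0.97, SE 0.24), Klre1 at 1.19 and 0.664 CPM against 2.52, 1.9 and 1.66 CPM (1.05, SE 0.31) and Klrc2 at 4.8 and 1.22 CPM against 7.44, 5.45 and 2.59 CPM (0.66, SE 0.23). Levels were higher in the male than in the female mouse of each genotype for these 3 genes. The 22 NK and innate-like markers share members with this list. They summed to 673 and 593 CPM in the controls and to 773, 723 and 705 CPM in the cKO mice, with no overlap. Of the 21 tested, however, 13 were positive and 8 negative. Relative to the mean of the controls, their median was 0.21 and -0.21 in the control mice and 0.26, 0.33 and -0.05 in the cKO mice. By this median, cKO mouse 3 lay below control mouse 1. The defining NK marker Ncr1 was at 0.069 CPM or less in every library. The part of NK and innate-like markers in the values of the chemokine, cytotoxic and receptor lists was not tested.

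Of the 16 transcription factors of effector cells, only Zeb2 and Eomes were higher in every cKO library than in both controls. The same was so for 1460 of all 18966 genes tested. The median over the 16 genes was -0.0095. Zeb2, a repressor of terminally differentiated effector cells, stood at 8.35 and 5.93 CPM in control and 13.7, 10.9 and 11.4 CPM in cKO mice (log2 fold change 0.72, SE 0.16, adjusted p = 0.481 in edgeR's quasi-likelihood test and 0.0365 by DESeq2's Wald test). Eomes, which drives effector and memory genes, stood at 40.9 and 27.3 CPM against 79.3, 51.5 and 50.7 CPM (0.75, SE 0.28). Runx3, the factor of CD8 lineage identity, stood at 111 and 116 CPM against 104, 102 and 101 CPM (-0.15, SE 0.06). Factors of naive and memory cells had a median of -0.09, with 15 of 18 negative, but -0.03 without cKO mouse 3 and -0.05 without control mouse 1. Satb1, a chromatin organiser, stood at 586 and 585 CPM against 542, 561 and 503 CPM (-0.13, SE 0.06), and Klf3, a quiescence factor, had -0.24 (SE 0.08) with overlap.

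Receptors showed mixed directions. Ccr4, a chemokine receptor for homing to skin, stood at 9.27 and 8.51 CPM in control and at 4.33, 7.19 and 4.15 CPM in cKO mice (log2 fold change -0.84, SE 0.21), and Itga4, an integrin chain, at 260 and 241 CPM against 216, 215 and 167 CPM (-0.35, SE 0.08). S1pr5, a receptor for exit from tissue, had 0.0167 and 0.0302 CPM against 0.278, 0.224 and 0.202 CPM, so both control libraries were under the floor of 3 counts. The co-stimulatory receptors Icos and Tnfrsf14 had -0.22 (SE 0.07) and -0.28 (SE 0.09), and the cytokine receptor chains Il6st and Tgfbr3 -0.21 (SE 0.08) and -0.35 (SE 0.11), against 0.15 (SE 0.06) for Il21r. Of the inhibitory receptors Lilrb4a had the smallest p: 42.9 and 19.2 CPM in control against 64.3, 49.7 and 27.8 CPM in cKO mice, where each cKO library again exceeded the control of its own sex (0.48, SE 0.10). The receptor-signalling adaptor Pag1 stood at 99.9 and 93.9 CPM against 84.4, 84.7 and 73.3 CPM (-0.28, SE 0.06).

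Genes of dividing cells had nearly all their members on the higher side. Mitotic genes had a median of 0.34, with 38 of 40 positive and 8 higher at an unadjusted p below 0.05, and DNA replication genes a median of 0.17, with 39 of 42 positive and 9 higher. Cdk1, the kinase that starts mitosis, stood at 2.43 and 3.91 CPM in control and 5.51, 3.36 and 5.55 CPM in cKO mice (log2 fold change 0.75, SE 0.26). Top2a, which untangles chromosomes, stood at 19.2 and 27.8 CPM against 32.9, 19.9 and 43.4 CPM (0.54, SE 0.18). For both genes cKO mouse 2 lay between the controls. The replication genes Cdc6 and Rrm2 had 0.49 (SE 0.16) and 0.51 (SE 0.19), also with overlap, and the G1 cyclin Ccne1 had 9.48 and 10.4 CPM against 12.1, 10.6 and 15.7 CPM (0.39, SE 0.13). The mice of a genotype differed among themselves: relative to the mean of the controls, the median of the mitotic genes was -0.15 and 0.15 in the control mice and 0.31, -0.04 and 0.64 in the cKO mice. Without cKO mouse 3 the list median was 0.23, and without cKO mouse 2 it was 0.47. The median of the DNA replication genes was -0.18 and 0.18 in the control mice and 0.13, -0.10 and 0.36 in the cKO mice. It was 0.10 without control mouse 1 and without cKO mouse 3, 0.27 without control mouse 2 and 0.25 without cKO mouse 2.

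Lists of growth metabolism were shifted less, with medians of 0.12 for glycolysis (21 of 25 positive), 0.09 for the nuclear-encoded respiratory chain (33 of 35), 0.08 for ribosome biogenesis (33 of 38) and 0.13 for heat shock and unfolded-protein genes (24 of 26). Cox5b and Cox5a, subunits of cytochrome c oxidase, had log2 fold changes of 0.24 (SE 0.08) and 0.21 (SE 0.07), and Hspa5, the chaperone of the endoplasmic reticulum, 0.14 (SE 0.06). All 13 mitochondrially encoded genes were negative, with a median of -0.09, but the sign depended on the control mouse kept: the median was -0.26 without control mouse 1 and 0.20 without control mouse 2. MHC class I genes had a median of -0.05, with 15 of 17 negative, among them Nlrc5, their transactivator (-0.18, SE 0.06). Without cKO mouse 3 the medians were 0.01 for glycolysis, 0.01 for MHC class I, 0.04 for ribosome biogenesis and 0.07 for heat shock genes. Without control mouse 1 ribosome biogenesis had 0.0018 and the respiratory chain 0.04, and without control mouse 2 ribosome biogenesis had 0.16. Without cKO mouse 2 ribosome biogenesis had 0.15.

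**Figure D4:**
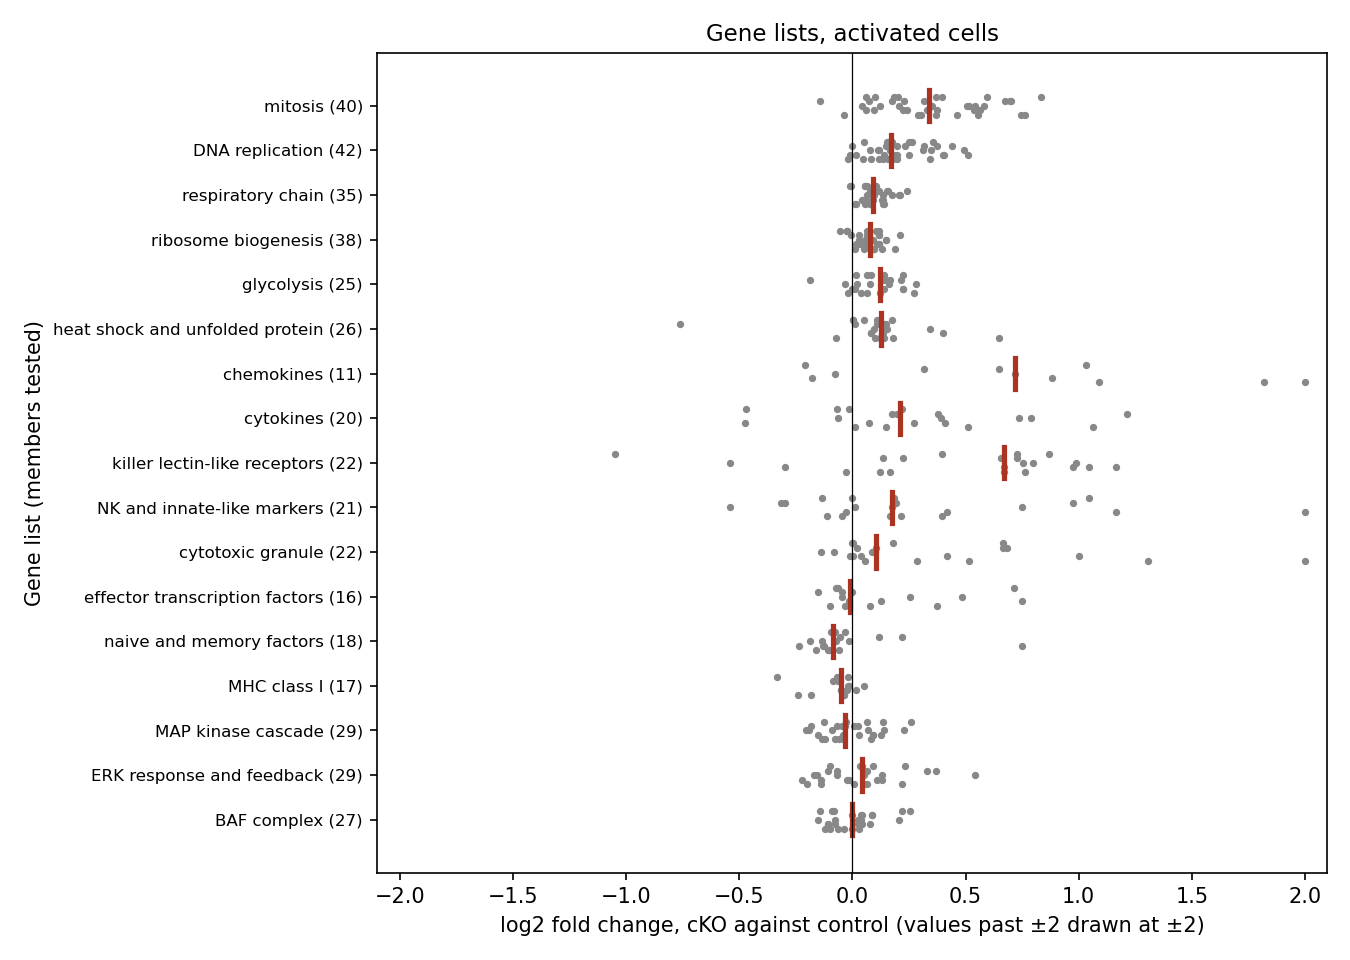
Grey points are the log2 fold changes (cKO against control, activated) of the tested members of 17 gene lists, and red bars are the list medians; the number of members tested follows each name. The 3 values past 2 are drawn at the edge. Mitotic and replication genes lie almost wholly right of 0, chemokine and killer lectin-like receptor genes spread widely with medians near 0.7, and BAF and MAP kinase genes centre on 0.

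A feature of the whole comparison was its relation to gene length. Among 9705 protein-coding genes whose mean reached 4 CPM, shorter genes were more often higher and longer genes more often lower in cKO cells. Over 5 bins of about equal size the median log2 fold change stepped from 0.06 in the shortest (up to 2610 bases) through 0.03, 0.00 and -0.02 to -0.06 in the longest (7767 bases and more). At an unadjusted p below 0.05, the shortest bin held 127 higher and 13 lower genes and the longest 19 higher and 296 lower, against 664 lower genes in the whole table. Spearman's rho between length and log2 fold change was -0.41 across these genes, which share libraries and are not independent replicates. In rested cells of the same mice it was -0.15, and not of 1 sign within the sexes: -0.23 and -0.27 for the male cKO mice against the male control, and 0.11 for the female pair.

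Each library contributed differently. Against the mean of the controls, the median of the shortest and of the longest bin was 0.03 and -0.03 in cKO mouse 1, 0.04 and -0.06 in cKO mouse 2, and 0.10 and -0.09 in cKO mouse 3. Compared within a sex, rho was -0.19 and -0.45 for the male cKO mice against the male control and -0.36 for the female pair, and it was -0.14 between the control mice themselves. In activated cells the trend was thus present in every cKO mouse and, more weakly, between the controls, and its part in the results above was tested only through the correction that follows. Respiratory chain genes are short (median 2101 bases). When each library was corrected for a smooth relation with length, a choice made after seeing the trend, the same 8 genes passed. The respiratory chain median then went from 0.09 to 0.04. Other medians also shrank: cytokines from 0.21 to 0.15, glycolysis from 0.12 to 0.09, heat shock genes from 0.13 to 0.10, and naive and memory factors from -0.09 to -0.06. The medians of MHC class I (-0.05 to -0.07) and the mitochondrially encoded genes (-0.09 to -0.15) moved further from 0. Those of the mitotic genes (0.34), DNA replication (0.16), chemokines (0.64) and killer lectin-like receptors (0.63) stayed near their values. The correction left 370 genes higher and 519 lower at an unadjusted p below 0.05.

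**Figure D5:**
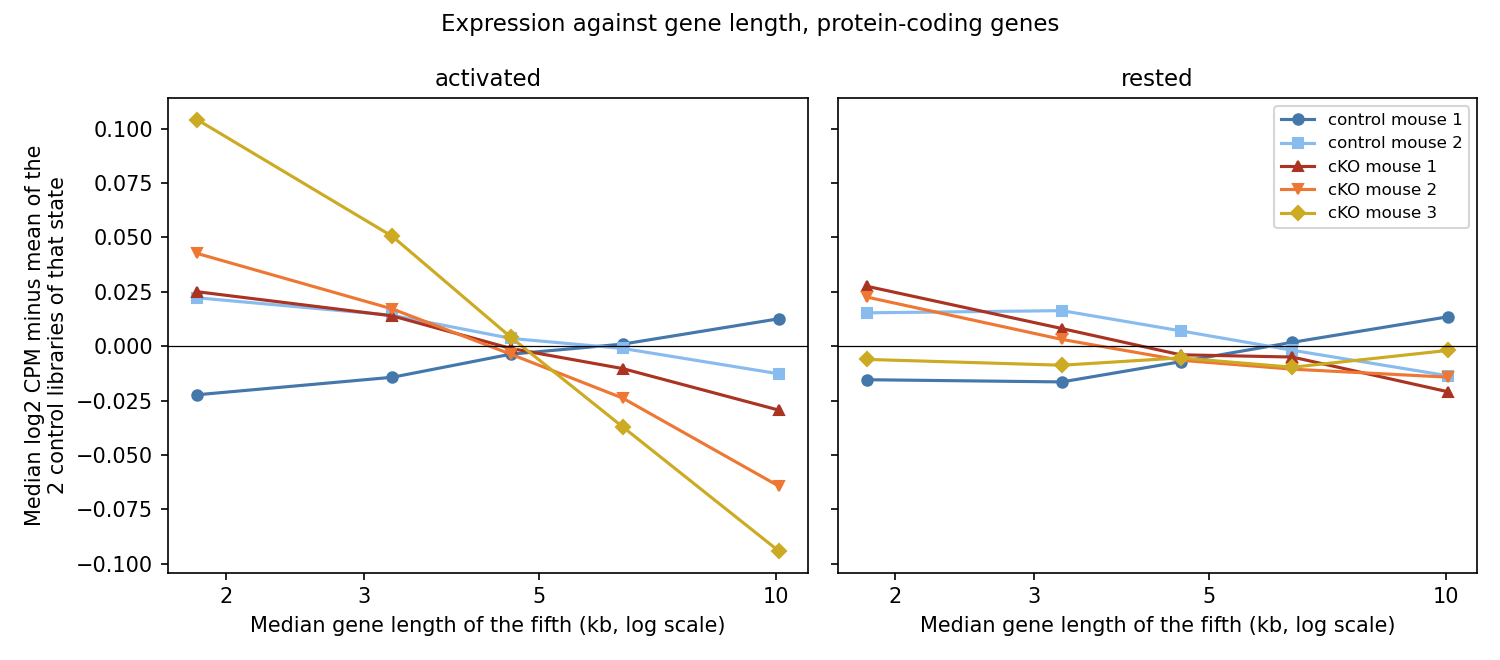
For protein-coding genes in 5 bins of gene length (x axis, median length in kb, log scale), lines give the median log2 CPM of each library minus the mean of the 2 control libraries of that state (y axis), in activated cells (left) and rested cells (right). In activated cells the 3 cKO lines slope down, that of cKO mouse 3 the most (0.10 to -0.09), and the control lines mirror each other by construction.

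The called genes differed in the same direction in the rested cells of the same mice. The log2 fold change of Dusp2 was -1.82 (SE 0.08) in rested and -2.49 (SE 0.07) in activated cells, a difference of -0.68 (SE 0.11, unadjusted p = 2.61e-05) that did not pass after adjustment in edgeR's quasi-likelihood test (adjusted p = 0.248). Astl had 11.13 (SE 0.34) in rested cells, a difference of -1.41 (SE 0.72, unadjusted p = 0.0857 in the same edgeR test), Adra2b 9.26 (SE 0.38) and Gpat2 7.05 (SE 0.31). Cdk5rap1 had -0.78 (SE 0.11) in rested cells. Of the genes with few counts, 1810053B23Rik stood at 0.00857 ± 0.012 CPM (SD, n = 2) in rested control and 0.962 ± 0.23 CPM (SD, n = 3) in rested cKO cells, and Gm30695 at 0 in both rested controls and 0.511 ± 0.099 CPM in rested cKO cells. Gbp2-ps stood at 0.171 ± 0.24 CPM in rested control cells and at 0 in the 3 rested cKO libraries. Ddt had 0.12 (SE 0.09) in rested and 0.51 (SE 0.08) in activated cells, a difference of 0.39 (SE 0.12), and Serpinb9 had -0.01 (SE 0.19) and 0.67 (SE 0.19), a difference of 0.68 (SE 0.27), both with an adjusted p of 1 by the same edgeR test. No gene (0%) passed the test of this difference at an adjusted p of 0.05 by edgeR, with 519 genes at an unadjusted p below 0.05. This test did not use the pairing of the rested and activated libraries of a mouse. By DESeq2's Wald test 3 genes passed and by limma-voom 0, with or without the mouse as a random block.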

How the data were processed

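RNA of 10 libraries of mouse splenic CD8+ T cells was sequenced in bulk with a stranded mRNA kit, per the labels' protocols. The submitters' processing notes name mm39 as build, and FastQC, Subread and MultiQC without versions. The annotation release and strand setting are not stated there, so overlapping and antisense genes are uncertain. The authors deposited raw counts per gene and library, and FPKM values that follow from the count, gene length and column total. edgeR 4.0.16 (R 4.3.3) was run on the counts with TMM scaling, its filterByExpr filter by group, and a robust quasi-likelihood fit of group means plus sex over all 10 libraries, which share an estimate of the spread (biological coefficient of variation 9.14%). An adjusted p below 0.05 (Benjamini-Hochberg over 18966 genes) is a call. The SE of a log2 fold change was taken as its absolute value divided by the root of the F statistic, which is not the fit's own error. Scripts were tested on simulated data. Where a symbol had several identifiers, the one with the most counts was used.

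The comparison, the 44 gene lists and the naming rule were chosen with earlier results of these data known. Genes were named by rule: called genes; the 12 highest and 12 lowest log2 fold changes with unadjusted p below 0.05, at least 5 CPM in a group and no overlap, leaving out predicted genes and receptor segments; and in each list at most 4 members, taken by p. Outside this rule, and with values known, stand Ddt and its neighbours, 1700029J03Rik, the genes beside the other called genes, Ccl4 and Prf1. All males share 1 name prefix and all females another, so the sex term also stands for what the prefix marks. Each animal gave a rested and an activated library, and the departures of the pair from their group means had correlations of 0.721 in the control mice, which mirror each other, and of 0.616, 0.391 and 0.642 in the cKO mice. Replicate libraries were not copies of each other (chi-square over degrees of freedom 9.24 to 46.2). The main fit had no mouse term and treated the rested and activated libraries of a mouse as independent. Its p-values thus rest on the spread between libraries and not between animals alone. With the activated libraries alone 5 genes passed, 4 of them also called in the main fit. By limma-voom with the mouse as a random block 7 passed, all 7 also called in the main fit. Counting intervals cover counting error only. Alternatives used DESeq2 1.42.0 and limma 3.58.1 (trend on log2(FPKM + 0.5) of the deposited FPKM, and voom), other scaling, filters and sex terms, mouse blocks, a length offset and leaving out each mouse. Sequences came from RefSeq (GRCm38.p6), another build than the counts, with Python 3.11.15; both promoters were matched by symbol.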

Additional observations from a re-analysis of the deposited data

How the results depend on the processing

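The count of 8 called genes moved by over 1.5 times under these alternatives. Without a low-count filter 211 genes passed, with 5 CPM in 2 libraries 5, with a sex effect per state 31, with the activated libraries alone 5, by DESeq2's Wald test 19 and by limma-trend on log2(FPKM + 0.5) 4. Leaving out 1 mouse at a time gave 6 to 49 calls. The 49, of which 35 were higher, came without cKO mouse 2 and included all 8, Eomes, Zeb2, Ccl5, Serpinb9, Nkg7, Top2a and Ddt. Without cKO mouse 3, whose titles conflict, 7 genes passed, 6 of them among the 8. Dusp2 and Gpat2 passed under all 17 refitted alternatives, Astl and Adra2b under 16. With the mouse as a random block 7 of the 8 passed, and the replicate block by mouse number in place of sex gave 13, of which 6 were among the 8. Those numbers do not pair different animals (correlations of deviations 0.541 and -0.637). In that fit number 2 joins a female control and a male cKO mouse, and number 3 is cKO mouse 3 alone. For the interaction, 39 genes passed without a filter, 3 by DESeq2 and 0 to 3 when 1 mouse was left out (3 without cKO mouse 3). In the fit by mouse number the log2 fold change of Eno1, a glycolysis gene, was -0.0073 against 0.22. The causes of these changes were not tested. With a control mouse left out, the spread of the remaining one is borrowed from the other groups. Gbp2-ps, 1810053B23Rik, Gm30695 and S1pr5 rest on few counts, and depth limits what can be said of them.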
